A study of Mus musculus with 4 samples.

Results

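At most genomic sites bound by the histone variant H2A.Z in both wild-type and Anp32e knockout fibroblasts, the knockout peak was as wide as the wild-type peak or wider. The 2008 sites described here went the other way, with a knockout peak narrower than its wild-type partner by 200 bp or more. They were found among matched pairs, meaning a wild-type and a knockout peak that share at least 1 bp with each other and with no other peak of the opposite list. Only pairs with a wild-type peak below 3500 bp were kept. The lists held 37667 wild-type and 41912 knockout peaks, which gave 28979 matched pairs, 27746 of them under that width. The narrowed pairs were 7.24% of the latter (95% interval 6.93 to 7.55%), and they held 5.33% of the wild-type and 4.79% of the knockout peaks. In 14616 pairs (52.7%) the knockout peak was wider by 200 bp or more, and in 11122 the widths differed by less than 200 bp in either direction.

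H2A.Z replaces the core histone H2A in a small part of nucleosomes, mainly at those flanking the start sites of genes and at enhancers. It is placed there by the remodelling complexes SRCAP and p400/TIP60. Anp32e is a chaperone that binds H2A.Z and has been described as taking it off chromatin. A site's peak width reflects how far detectable H2A.Z signal reaches to either side.

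Both cultures were primary mouse embryonic fibroblasts on a C57BL/6 background, taken at embryonic day 10.5 from the torsos of embryos born of heterozygous parents and used at passages 5 to 10. The wild type was Anp32e+/+ and the knockout Anp32e-/-, a deletion present in every cell of the embryo and not limited to fibroblasts. Each genotype had 1 H2A.Z library, so a genotype cannot be told apart from its culture or its library. The lists give positions on the mouse build mm9 and nothing on signal height, read number or strand. Sequencing depth is unknown, and called widths move with depth and with the calling threshold, whose part in the values below was not tested. Neither the knockout nor the fibroblast identity could be checked against genes, since no annotation or genome on mm9 was used here. Regions are therefore named by position, and no sequence is printed.

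Because the difference in width chose the pairs, everything taken from the same 2 lists is a description of these libraries, with no test. Intervals are exact Clopper-Pearson 95% intervals for shares and order-statistic 95% intervals for medians. They cover counting error over pairs only and treat neighbouring pairs as independent.

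The narrowed pairs were wide sites in the wild type. Their median wild-type width was 2252 bp (quartiles 1856 and 2714 bp), against 1905 bp for pairs within 200 bp and 1639 bp for widened pairs. In the knockout their median width was 1763 bp (quartiles 1419 and 2196 bp), below the 1956 bp of pairs within 200 bp and the 2242 bp of widened pairs. The order of the 3 classes thus turned around between the genotypes. The classes are defined by the width difference, which itself favours wide wild-type and narrow knockout peaks among narrowed pairs. Neither the wild-type widths nor the turned order is therefore a separate finding. The median narrowing was 360 bp (quartiles 263 and 557 bp), or 17.4% of the wild-type width. Together the narrowed pairs covered 4.61 Mb in the wild type and 3.69 Mb in the knockout, a net loss of 0.922 Mb or 19.98% of their sequence.

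Most narrowings were modest. Of the 2008 pairs, 718 lost less than 300 bp, 425 lost 300 to under 400 bp, and 422 lost 400 to under 600 bp. A further 314 lost 600 to under 1000 bp, and 129 lost 1000 bp or more. The selection limits cut through a continuous range. Just inside, 95 pairs were narrower by 200 to under 210 bp, with a median wild-type width of 2069 bp. Just outside, 101 pairs were narrower by 190 to under 200 bp, with a median of 1896 bp. At the width limit, 31 narrowed pairs had wild-type peaks of 3400 to under 3500 bp, with a median narrowing of 615 bp. Another 25 peaks of 3500 to under 3600 bp had narrowed by a median of 585 bp and stayed outside, among 256 narrowed sites of 3500 bp or more in all.

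The share of narrowed pairs depended on which genotype's width was used to sort them. By wild-type width it climbed from 0.210% of pairs under 1200 bp to 3.57%, 9.27% and 10.6% in bins with bounds at 1700 and 2200 bp, and reached 16.0% from 2700 to under 3500 bp. By knockout width it ran the other way, from 13.2% under 1200 bp to 11.2%, 7.81%, 5.68% and 2.90% in the same bins. A pair chosen for its difference is by construction wide in the first list and narrow in the second, so neither trend is independent of the choice. What the choice did not fix is the difference between chromosomes at a given width. At wild-type widths of 2700 to under 3500 bp, 50.2% of the pairs on chromosome 4 had narrowed (95% interval 44.4 to 56.0%), against 12.5% on the other 19 chromosomes (11.3 to 13.8%). At knockout widths of the same range the shares were 17.8% (12.8 to 23.7%) and 2.21% (1.79 to 2.68%). Chromosome 4 lay above the other chromosomes together in each of the 5 width bins of both sortings, although under 1200 bp of wild-type width the intervals overlapped, at 1.32% (0.161 to 4.70%) and 0.170% (0.0682 to 0.349%).

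**Figure D1:**
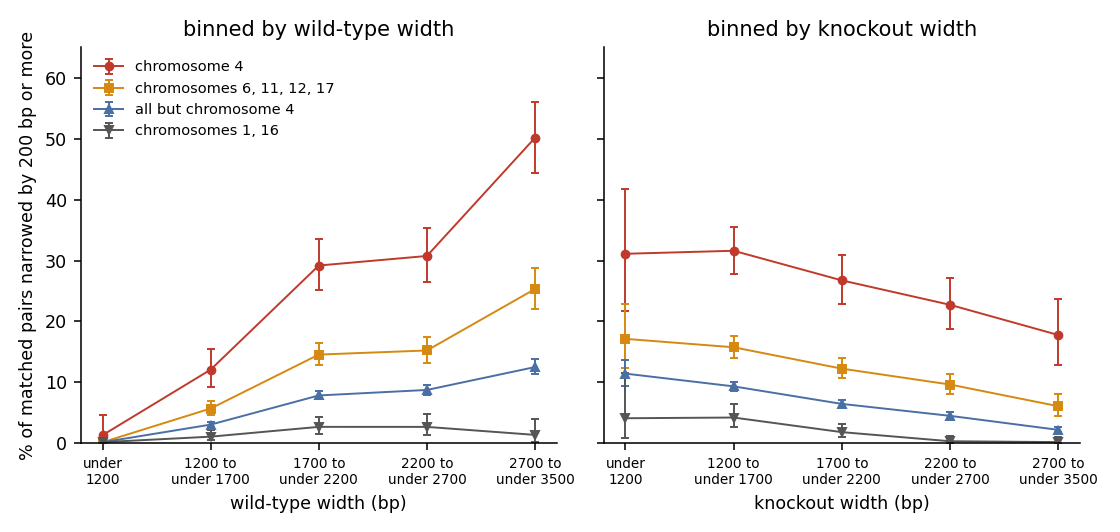
Percent of matched pairs narrowed by 200 bp or more (vertical axis) in bins of wild-type width (left) and knockout width (right, up to 3500 bp), for chromosome 4, for chromosomes 6, 11, 12 and 17 together, for all but chromosome 4, and for chromosomes 1 and 16 together. Bars are exact 95% intervals over pairs; on chromosome 4 the share climbs from 1.32% to 50.2% with wild-type width, and on chromosomes 1 and 16 it stays at or below 2.69% by wild-type width and 4.23% by knockout width.

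Retraction was measured at each edge as the distance by which the knockout edge lay inside the wild-type edge. Low and high refer to genome coordinates, since the lists carry no strand. Neither side was favoured. The low-coordinate edge gave the larger retraction in 1000 pairs, or 49.8% (95% interval 47.6 to 52.0%), the high-coordinate edge in 1006, and both gave the same in 2. The median retraction was 173 bp at the low edge (160 to 182 bp) and 181 bp at the high edge (167 to 192 bp).

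Within single sites, however, the narrowing was usually uneven. In 1327 pairs (66.1%, 95% interval 64.0 to 68.2%) one edge alone accounted for at least 80% of the net narrowing. With a movement of up to 25 bp counted as still, both edges retracted in 1009 pairs (50.2%, 48.0 to 52.5%). In 337 pairs (16.8%) one edge retracted and the other stayed still, the low edge in 164 and the high edge in 173. This share rests on the limit, at 7.47% (150 pairs) with 10 bp and 33.5% (673 pairs) with 50 bp. In the remaining 662 pairs (33.0%) one edge retracted while the other moved outward, by medians of 520 bp inward and 92 bp outward. The outward move reached 200 bp or more in 121 of them. The knockout peak lay wholly within the wild-type peak in 1172 pairs (58.4%). The partners shared less than 50% of the wild-type peak in 45 pairs (2.24%).

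Widened pairs, read as the mirror image, were more even. Both edges had moved outward in 81.0% of them (95% interval 80.3 to 81.6%), and one edge moved against the other in 8.02% (7.58 to 8.47%). One edge gave at least 80% of the widening in 41.6% (40.8 to 42.4%). The median widening was 430 bp, so these pairs also changed by more. On chromosome 4 the contrast was smaller. Both edges had moved outward in 72.4% of its widened pairs (67.2 to 77.2%), and both had retracted in 61.3% of its narrowed pairs (56.7 to 65.7%). One edge gave at least 80% of the change in 46.7% of the former and 57.7% of the latter. Their median changes were 352 and 412 bp. Size of the change did not order the shapes of narrowing in a simple way. Both edges retracted in 45.1% of pairs that lost less than 300 bp (95% interval 41.4 to 48.8%) and in 57.4% of those that lost 1000 bp or more (48.4 to 66.0%). Sites with one edge moving outward were most frequent among losses of 600 to under 1000 bp, at 40.4% (35.0 to 46.1%). One edge gave at least 80% of the loss in 65.5% of pairs that lost less than 300 bp (61.9 to 68.9%). From 300 and from 400 bp this share was 62.4% and 63.5%. It was 72.0% from 600 to under 1000 bp (66.7 to 76.9%) and 76.0% from 1000 bp (67.7 to 83.1%).

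**Figure D2:**
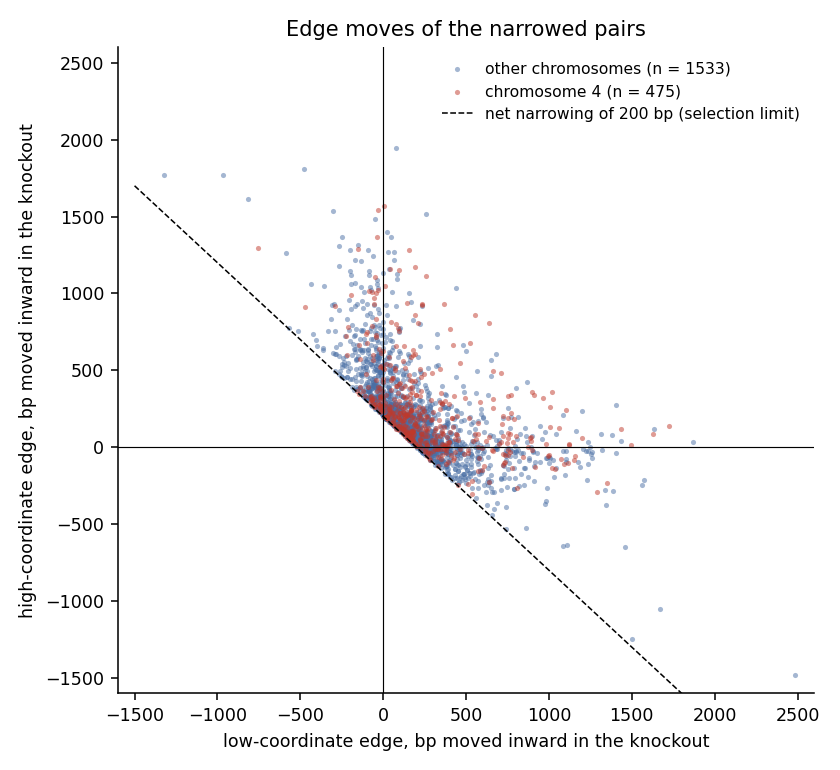
Each point is 1 of the 2008 narrowed pairs, placed by the bp its low-coordinate edge (horizontal) and its high-coordinate edge (vertical) moved inward in the knockout, with chromosome 4 in red (n = 475) and the other chromosomes in blue (n = 1533). Negative values are outward moves, the dashed line is the selection limit of 200 bp, and the points spread along both axes, with 1000 pairs below the diagonal of equal moves and 1006 above it.

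The largest narrowings show these uneven shapes. Off chromosome 4 the first was on chromosome 17, from 43595240 to 43598460, where a wild-type peak of 3221 bp had a knockout partner of 1201 bp. Its low edge retracted by 75 bp and its high edge by 1945 bp, which is a loss of 62.7% of the width, the largest share of all narrowed pairs. The second lay on chromosome 2 at 74551578 to 74554914, with 3337 bp in the wild type and 1434 bp in the knockout. There the low edge gave 1866 bp and the high edge 37 bp. On chromosome 8 at 28198836 to 28202314 the width fell from 3479 to 1702 bp, mainly at the high edge (1518 bp), although the nearest wild-type peak on the low side was only 0.025 kb away. The smaller retraction at these 3 sites was 75, 37 and 259 bp, so no edge was still by the 25 bp limit.

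The next 2 sites of this order lay on chromosome 11 at 50662329 to 50665680, from 3352 to 1599 bp, and on chromosome 6 at 112894776 to 112898180, from 3405 to 1725 bp. Both retracted mainly at the low edge, by 1636 and 1407 bp. A second site on chromosome 6, at 52181976 to 52185410, went from 3435 to 1959 bp with 1437 bp at the low edge and 39 bp at the high edge. On chromosome 18 at 80744559 to 80747498 the change from 2940 to 1467 bp was shared between the edges, 440 bp low and 1033 bp high. The site on chromosome 15 at 62158619 to 62161583 lost 1465 bp, of which 1383 bp at the low edge. The last 2 were on chromosome 8 at 48827852 to 48830749, where the high edge retracted by 1487 bp and the low edge moved outward by 48 bp, and on chromosome 2 at 154006978 to 154010242, which lost 1432 bp. Of these 10 sites, 9 had at least 80% of the loss at a single edge, the exception being chromosome 18.

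Chromosome 4 supplied sites of the same size. The largest went from 3424 to 1562 bp at 141126624 to 141130047, with 1722 bp lost at the low edge. At 137003517 to 137006557 the width fell from 3041 to 1324 bp, again at the low edge (1628 bp). At 140893493 to 140896686 the low edge moved by 4 bp and the high edge retracted by 1566 bp, with other wild-type peaks 1.25 kb away on both sides. The fourth and the fifth, at 155026573 to 155029800 and at 98827716 to 98830989, lost 1557 bp at mostly the low edge and 1513 bp at the high edge.

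Among sites with one edge still, the largest low-edge retractions were 1497 bp on chromosome 4 at 59293420 to 59296462, 1318 bp on chromosome 17 at 29594468 to 29597830 and 1249 bp on chromosome 11 at 115126132 to 115129259. The opposite edges moved by 12 bp inward, 15 bp outward and 2 bp inward. The largest high-edge retractions of this kind were the 1566 bp site of chromosome 4 above, 1399 bp on chromosome 11 at 58947711 to 58950268, and 1132 bp on chromosome 2 at 102779578 to 102781848. The second of these lost 55.5% of its width and the third 49.8%. Even retractions were smaller. The largest even retractions were on chromosome 8 at 86764152 to 86766408 (440 bp low, 456 bp high), on chromosome 4 at 41452381 to 41455675 (348 and 354 bp) and on chromosome 6 at 112408799 to 112410564 (311 and 287 bp).

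**Figure D3:**
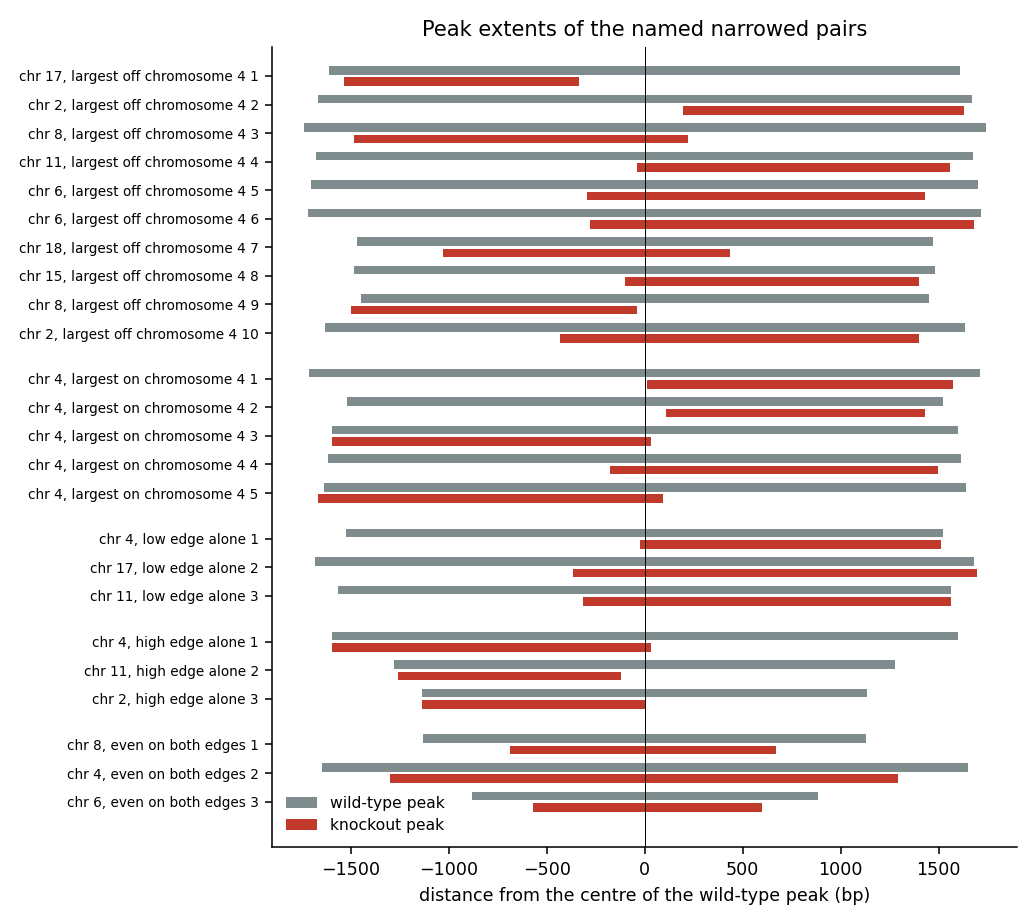
Extent of the wild-type peak (grey) and the knockout peak (red) at the named sites, as distance in bp from the centre of the wild-type peak, grouped by the rule that named each site. In most sites of the upper groups the red bar lies toward one end of the grey bar, and in the lowest group it lies near the middle.

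Narrowed pairs were found on all 20 chromosomes listed and were spread unevenly. Chromosome 4 held 475 of them, 23.7% (95% interval 21.8 to 25.6%) of all narrowed pairs against 6.48% of all matched pairs under 3500 bp. There 26.4% of 1799 pairs had narrowed (24.4 to 28.5%) and 17.7% had widened, so that narrowed pairs outnumbered widened ones by a factor of 1.49. On each of the other 19 chromosomes widened pairs were the more frequent. Without chromosome 4 there were 1533 narrowed pairs, 5.91% of 25947 (5.62 to 6.20%), and 55.1% of pairs had widened.

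The unevenness did not end with chromosome 4. Among the other 19 chromosomes the narrowed share ran from 1.43% on chromosome 1 (95% interval 0.906 to 2.13%) to 14.5% on chromosome 12 (12.2 to 16.9%), a 10.1-fold range. Chromosomes 11, 6 and 17 followed with 13.0%, 10.3% and 9.82%. Together chromosomes 6, 11, 12 and 17 held 658 narrowed pairs, 32.8% of all, and with chromosome 4 the number reached 1133, or 56.4% on 26.5% of the pairs. Their 4 shares lay between 9.82% and 14.5%, and the interval of chromosome 6 (8.61 to 12.1%) overlapped those of chromosomes 17 (8.26 to 11.6%) and 11 (11.6 to 14.5%), so their order is not fixed. At the other end, chromosomes 1, 16, X, 13 and 5 held 139 narrowed pairs, 2.20% of their 6324. Leaving out the 5 highest chromosomes left 875 narrowed pairs, 4.29% of 20407.

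Chromosomes at the ends of the narrowed share also differed in the width of their pairs as a whole. The median difference over all matched pairs (knockout minus wild type) was -32 bp for chromosome 4. Chromosomes 12, 6 and 11 had 56, 93 and 97 bp, and chromosomes 1 and 16 had 409 and 410.5 bp. The order was not strict: chromosome 15, at 363.5 bp, had 5.00% of its pairs narrowed, above chromosome 3 (242 bp, 4.33%) and chromosome X (263 bp, 2.47%). When narrowing by 200 bp or more was counted from each chromosome's own median, 5712 pairs qualified. The share was then 23.2% on chromosome 4 (95% interval 21.2 to 25.2%) and 23.1% on chromosome 1 (21.0 to 25.2%). It lay between 16.4% and 23.6% on 19 chromosomes and at 28.8% on chromosome 15 (26.5 to 31.2%). The 18.5-fold range of the narrowed share over 20 chromosomes became a 1.75-fold range, and chromosome 4 held 7.30% of the pairs so counted. The median enters the new limit itself, so this describes how the share is distributed around each chromosome's middle and is not a separate measurement.

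**Figure D4:**
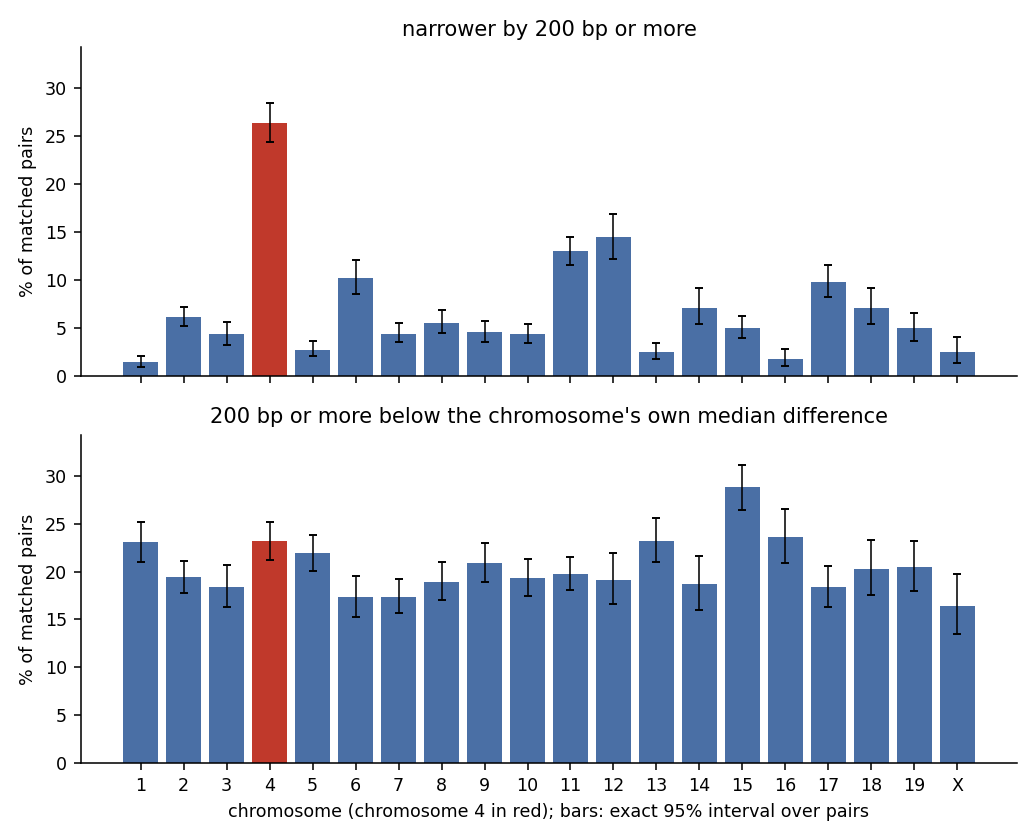
Percent of matched pairs with a wild-type peak under 3500 bp on each chromosome that were narrower in the knockout by 200 bp or more (top), and that lay 200 bp or more below the median width difference of their own chromosome (bottom). Bars are exact 95% intervals over pairs; chromosome 4, in red, stands at 26.4% in the upper panel and at 23.2% in the lower one.

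Along chromosome 4 narrowing was found from end to end. In bins of 20 Mb with at least 50 pairs its share lay between 18.0% and 30.9% in all 8 bins. The highest was 166 of 537 pairs between 120 and 140 Mb (95% interval 27.0 to 35.0%), and the lowest, 11 of 61 pairs between 20 and 40 Mb, had a wide interval (9.36 to 30.0%). On chromosome 12 the 6 bins ran from 20.4% at the start of the chromosome (13.2 to 29.2%) to 9.39% between 80 and 100 Mb (5.57 to 14.6%). Chromosome 6 stayed between 8.11% and 12.4% in 8 bins, chromosome 11 between 8.70% and 16.8% in 7, and chromosome 1 between 0 and 2.71% in 9. No bin outside chromosome 4 exceeded the 20.4% of chromosome 12.

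Narrowing on chromosome 4 was also deeper and more often two-edged than on the other chromosomes together. Its median was 412 bp there (95% interval 375 to 447 bp) and 348 bp elsewhere (339 to 360 bp). Chromosomes 8, 9, 6 and 5, with medians of 398, 393.5, 384 and 377 bp, lay inside the interval of chromosome 4. Wild-type peaks of narrowed pairs were wider on chromosome 4, with a median of 2403 bp against 2217 bp, and as a share of that width the medians were 19.2% (17.6 to 20.4%) and 16.98% (16.4 to 17.5%). Of the 129 losses of 1000 bp or more, 48 (37.2%) lay on chromosome 4, compared with 20.2% of the losses under 300 bp. Both edges retracted in 61.3% of its narrowed pairs (56.7 to 65.7%), against 46.8% elsewhere (44.3 to 49.4%). One edge moved outward in 22.3% (18.6 to 26.3%) and 36.3% (33.9 to 38.7%). Chromosome 6, with 60.8% (51.7 to 69.4%), and chromosome 14, with 61.8% (47.7 to 74.6%), had shares of two-edged retraction like that of chromosome 4. The low edge gave the larger retraction in 51.2% on chromosome 4 (46.6 to 55.7%) and 49.4% elsewhere (46.8 to 51.9%).

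Narrowed pairs had closer wild-type neighbours than other pairs did. The nearest other wild-type peak was a median of 5.63 kb away (95% interval 5.20 to 6.17 kb), against 9.15 kb for pairs within 200 bp (8.87 to 9.53 kb) and 8.80 kb for widened pairs (8.57 to 9.07 kb). By the knockout list their median over all widths was like that of widened pairs. The nearest other knockout peak was a median of 6.89 kb from narrowed pairs (6.26 to 7.503 kb) and 6.89 kb from widened pairs (6.65 to 7.10 kb), with 8.67 kb for pairs within 200 bp (8.38 to 8.99 kb). At wild-type widths under 1700 bp narrowed pairs had the longer knockout gap, 8.23 kb (6.48 to 10.2 kb) against 6.17 kb (5.89 to 6.42 kb) for widened pairs. From 2200 to under 2700 bp they had the shorter, 6.19 kb (5.34 to 7.49 kb) against 8.67 kb (8.06 to 9.35 kb). In the other bins the intervals overlapped, at 7.18 and 7.28 kb from 1700 bp and 6.27 and 7.43 kb from 2700 bp. A wild-type neighbour lay within 5 kb of 933 narrowed pairs (46.5%, 44.3 to 48.7%) and of 34.5% of pairs within 200 bp (33.6 to 35.4%). Off chromosome 4 the medians were 6.24 kb for narrowed pairs (5.61 to 7.16 kb) and 9.52 kb for pairs within 200 bp (9.08 to 9.84 kb), and on chromosome 4 they were 4.45 and 6.83 kb. The narrowed pairs had the shorter median on 12 of the 15 chromosomes with at least 50 of them, the exceptions being chromosomes 3, 7 and 10. No test was made of this difference. The pairing rule bears on it, because sites where a peak of one list spans several of the other are in no matched pair.

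The gap held among sites of similar width once the wild-type peak reached 1700 bp. From 1700 to under 2200 bp the medians were 5.66 kb for narrowed pairs (95% interval 4.80 to 6.90 kb) and 8.73 kb for pairs within 200 bp (8.30 to 9.28 kb). From 2200 to under 2700 bp they were 5.23 kb (4.58 to 6.06 kb) and 11.4 kb (10.6 to 12.2 kb), and from 2700 bp they were 5.32 kb (4.35 to 6.09 kb) and 10.3 kb (9.34 to 11.6 kb). Under 1700 bp they were 7.66 kb (6.06 to 9.81 kb) and 8.12 kb (7.64 to 8.57 kb), with overlapping intervals. Among narrowed pairs the 3 wider bins did not differ beyond their intervals.

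**Figure D5:**
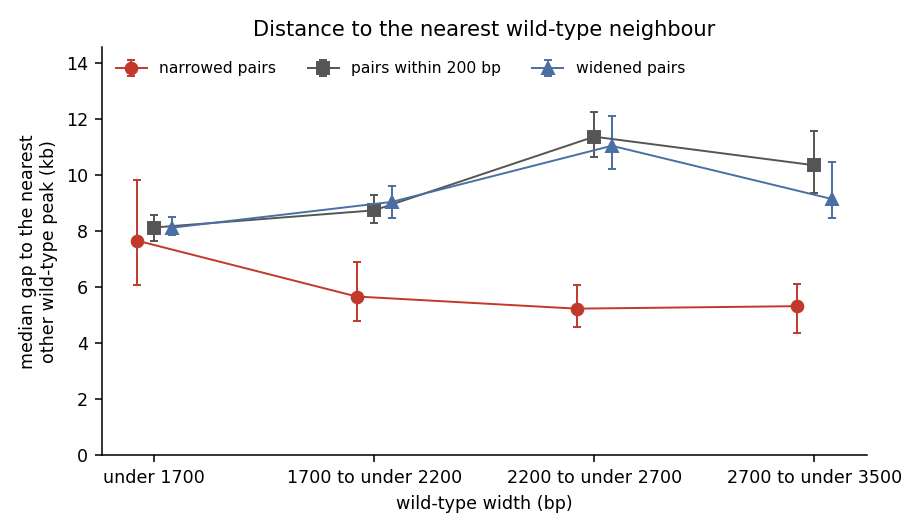
Median distance in kb from the edge of the wild-type peak to the nearest other wild-type peak (vertical axis) in 4 bins of wild-type width, for narrowed pairs (red), pairs within 200 bp (grey) and widened pairs (blue). Bars are 95% intervals of the median over pairs; narrowed pairs lie at 5.23 to 7.66 kb, and their intervals fall below those of both other classes from 1700 bp upward.

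Wild-type peaks with no knockout partner were frequent beside narrowed pairs. Of the wild-type peaks directly before and after a narrowed pair, 25.9% were found in the wild type alone (95% interval 24.5 to 27.3%), against 18.1% beside pairs within 200 bp (17.6 to 18.6%) and 14.5% beside widened pairs (14.1 to 14.9%). Off chromosome 4 the shares were 22.6% (21.1 to 24.1%), 16.8% and 14.2%. On chromosome 4 they were 36.4% (33.4 to 39.6%), 31.8% (29.8 to 33.9%) and 30.9% (27.4 to 34.7%), with overlapping intervals. The share was larger beside narrowed pairs than beside pairs within 200 bp on 14 of the 15 chromosomes with at least 50 narrowed pairs, chromosome 18 being the exception. Knockout peaks followed the reverse order over all chromosomes. Of those directly beside narrowed pairs, 17.3% had no wild-type partner (16.1 to 18.5%). Beside pairs within 200 bp it was 21.4%, and beside widened pairs 28.6%. The order held off chromosome 4, at 19.99% (18.6 to 21.5%), 22.5% (21.9 to 23.1%) and 28.98%. It was not resolved on chromosome 4, where the intervals overlapped. There the shares were 8.42% (6.73 to 10.4%), 10.5% (9.15 to 11.9%) and 10.4% (8.10 to 12.99%).

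The larger retraction faced the nearest neighbour about as often as not. It did so for the nearest wild-type peak in 1034 of 2006 pairs (51.5%, 95% interval 49.3 to 53.8%). Where that peak lay within 1 kb it did so in 140 of 285 (49.1%, 43.2 to 55.1%).

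Narrowed pairs, 7.24% of all pairs, lay farther from each other than pairs of the more frequent classes did, taken over all chromosomes. From one narrowed pair to the next the median distance was 295 kb (95% interval 257 to 336 kb), 79.6 kb on chromosome 4 and 434 kb elsewhere. Another narrowed pair lay within 10 kb of 249 (12.4%) and within 50 kb of 690 (34.4%). Pairs within 200 bp lay 67.4 kb from the next of their kind, with 61.8% having one within 50 kb, and widened pairs 44.5 kb, with 72.5%. On chromosome 4, where widened pairs were fewer than narrowed ones, widened pairs lay farther apart, at 162 kb. There 39.5% of widened and 60.2% of narrowed pairs had another of their kind within 50 kb. Pairs within 200 bp lay 44.0 kb apart on that chromosome. Taken in order along the chromosomes among all matched pairs, 1494 narrowed pairs had no narrowed pair next to them. The other 514 (25.6%) formed 229 runs, of which 181 held 2 pairs, 42 held 3, 5 held 4 and 1 held 6. The pair after a narrowed one was itself narrowed in 29.3% of cases on chromosome 4 (25.1 to 33.8%), where 26.4% of all pairs were narrowed. Elsewhere it was 10.6% (9.03 to 12.2%), where 5.91% were. Narrowed pairs were concentrated on chromosomes with a high share, which by itself lifts the first value above the second. Taken chromosome by chromosome, the share after a narrowed pair was above that of all pairs on 13 of the 15 chromosomes with at least 50 such pairs, chromosome 4 among them. It was 17.9% against 13.0% on chromosome 11 (13.5 to 23.1% for the former) and 11.3% against 10.3% on chromosome 6 (6.31 to 18.2%). On chromosomes 7 and 9 it was below, at 3.95% (0.822 to 11.1%) against 4.43% and 4.35% (0.906 to 12.2%) against 4.57%. Among these 15 chromosomes, only on chromosome 11 did the interval lie wholly above the chromosome's own share. Neighbouring narrowed pairs had their larger retraction on the same side in 143 of 284 cases (50.4%, 44.4 to 56.3%).

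The 3 runs named here all lay on chromosome 4. Runs of 4 pairs numbered 5, of which 4 lay on chromosome 4, and those named were picked by the larger wild-type width. The longest held 6 pairs over 108 kb, from 128559343 to 128667657. Its losses were 312, 1069, 283, 273, 535 and 211 bp in order of position, and the fifth peak was displaced, with its low edge 758 bp outward and its high edge 1293 bp inward. That stretch held 8 wild-type peaks, 2 of them without a knockout partner, and 6 knockout peaks. The next run, 28.3 kb from 134826956 to 134855243, held 4 pairs that lost 434, 816, 343 and 576 bp. In all 4 the low edge retracted, by 399, 782, 310 and 574 bp, and the high edge by at most 35 bp. Its stretch held 6 wild-type peaks, 2 of them without a knockout partner. The third run, 4 pairs over 227 kb from 141570012 to 141796551, lost 366, 441, 678 and 595 bp and lay among 11 wild-type peaks, 7 of which had no knockout partner. For scale, 36.4% of the wild-type peaks directly beside narrowed pairs on chromosome 4 had none, a share counted over flanking peaks alone.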

How the data were processed

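Per the labels' protocols, lysates of sonicated nuclei were immunoprecipitated and sequenced from 1 end, 50 bases a read. The authors deposited 1 list of peak positions (chromosome, start, end) for each of the 2 H2A.Z libraries. Per the file headers the lists came from Galaxy. Per the submitters' processing notes HOMER, MACS 1.4.2, Bowtie 0.12.8 and CASAVA 1.8.2 were used, with mm9 as build; their roles, order and settings were not given in the sources used here. The 2 input libraries were not analysed here.

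Lists were read as BED, width being end minus start, and printed positions count from 1. Pairing, edges and distances were computed with scipy 1.17.1, pandas 2.3.3 and numpy 2.4.6 under Python 3.11.15, with plots from matplotlib 3.10.9. The pairing code was tested on simulated peaks and returned the edge moves put in. The members and lists were chosen with earlier results of these data known, and the bounds of the width bins after seeing the data; bounds 50 bp higher were tried first and are kept as an alternative. Named sites are the 10 largest narrowings off chromosome 4 and the 5 on it, the 5 largest as a share of width, the 3 largest with one edge still (each side), the 3 largest even retractions and the 3 longest runs, with ties going to the larger wild-type width. The gene table and promoter sequences at hand are on GRCm38 and were not used here, nor were the marker and gene lists. The alternatives tried, and their effect, are given in the closing section.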

Additional observations from a re-analysis of the deposited data

How the results depend on the processing

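Of 78 alternative values, 41 left the main interval (or, for the number of pairs, moved by more than 1.5 times) and 37 did not. The share of pairs with the larger retraction at the low edge was among the latter under each of its 13 alternatives. Minimum narrowings of 100, 300 and 500 bp gave 3216, 1290 and 612 pairs, 11.6%, 4.65% and 2.21% of matched pairs, 21.1%, 25.6% and 30.7% on chromosome 4, and median distances between narrowed pairs of 179, 432 and 793 kb. Both edges retracted in 41.4% at 100 bp and 53.1% at 300 bp. Counted from the median difference of all pairs, 5866 pairs (21.1%) qualified, 17.2% of them on chromosome 4, 24.0% with both edges retracted, 107 kb apart. Counted from the chromosome's median there were 5712 (20.6%), with 7.30%, 22.2% and 142 kb. A wild-type limit of 2500 bp gave 1277 pairs (5.59%), 21.1% on chromosome 4 and 557 kb, and no limit gave 7.81% and 237 kb. Merging peaks within 500 bp gave 7.58% of pairs and 47.8% with both edges retracted. Without chromosome 4 the values were 5.91%, 46.8% and 434 kb. Chosen after seeing the data, omission of chromosomes 4, 6, 11, 12 and 17 gave 875 pairs, 4.29%, 42.7% and 726 kb, and limits of 10 and 50 bp for a still edge gave 54.8% and 41.4% with both edges retracted. Beyond what each setting does by construction, the cause was not tested. With the inner bounds of the wild-type width bins 50 bp higher (also chosen after seeing the data), 2 of 27 values left their interval. The narrowed share in the second bin was 4.29% in place of 3.57%, or 3.65% in place of 3.06% off chromosome 4. The median distance of narrowed pairs to a wild-type neighbour then shortened from bin to bin (7.04, 5.91, 5.40 and 5.06 kb), an order not seen with the reported bounds (7.66, 5.66, 5.23 and 5.32 kb). No paired analysis was possible because there was a single library of either genotype. With depth unknown, widths are compared only as called.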

Other observations

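The side of the larger retraction, even over the whole genome, was less even on single chromosomes. On chromosome 2 it was the low edge in 86 of 142 narrowed pairs (60.6%, 95% interval 52.0 to 68.7%), and on chromosome 8 in 31 of 83 (37.3%, 27.0 to 48.7%). These 2 were picked from 20 chromosomes after their values were seen. On the other 18 chromosomes the interval included an even split.

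The pair with the least shared sequence was likewise picked after its values were seen. On chromosome 9 the wild-type peak of 2587 bp ran from 65044477 to 65047063 and the knockout peak of 1587 bp from 65046961 to 65048547. They had 103 bp in common, and the high edge of the knockout peak lay 1484 bp beyond that of the wild-type peak.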
